A study of Sus scrofa with 180 samples.

Results

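The genes described here encode RNA splicing factors and RNA helicases expressed in skeletal muscle of pigs, measured in Longissimus (LM) and in Semimembranosus (SM). They are all the genes in the study's lists of genes differing between the muscles whose symbol begins with SRSF, SFRS, HNRNP, SF3, DDX, DHX, RBM, PRPF, SNRP or LSM. There are 60 such genes, measured by 70 probes, among 3481 genes with 3967 probes named in those lists. The list of genes higher in LM gave 43 of the genes (51 probes) and the list of genes higher in SM gave 17 (19 probes). Because these lists were made from the same arrays, the difference between the muscles chose the members, and it is given below as a description with no test. The copy of the SM list used here holds only its first part, in order of fold change, so genes with a weaker excess in SM are not analysed here.

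Muscle was taken from 90 pigs, females and barrows, of 2 half-sib families, which came from an intercross over successive generations between the terminal sire lines FH016, a Pietrain type line, and FH019, a synthetic line with Duroc, Large White and Hampshire founders. All were homozygous for the wild type alleles of the HAL and RN loci (NN and rn+rn+), and the labels give no treatment. Both muscles of a pig were sampled from the superficial region of the same carcass shortly after slaughter at commercial weight, so neither the deep region of the muscles nor living muscle is represented. The RNA of each sample was hybridized to 1 single-colour (Cy3) Agilent array, giving 90 arrays of LM and 90 of SM.

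Values are log2 processed signals after subtraction of the array median, so that 0 is the median probe of that array and a positive difference means a higher value in LM. Levels of different probes were not compared. Of the 15198 probes of the array, 10987 were kept after the filters on spot quality, including all 70 of the members, and 41 members had no failing spot on any array. The median signal of an array lay between 171 and 304 in LM and between 105 and 252 in SM. LM arrays lie on 21 slides scanned on 10 days and SM arrays on 14 slides scanned on 5 later days, so slide, scan day and muscle cannot be told apart. In whole muscle, fewer cells of a type and less RNA per cell cannot be told apart either. The fast fibre genes MYH1 and MYL1 had mean values of 8.29 and 5.32 in LM and of 8.86 and 4.45 in SM, far above the array median in both, in accord with the skeletal muscle label. Markers of other cells that the lists name were mostly higher in SM. Higher in SM were 3 of 5 adipocyte markers listed (ADIPOQ, CIDEC and PLIN1), 2 of 5 endothelial markers and 2 of 6 fibroblast markers. The mean of the adipocyte values on an array ran from -3.34 to 1.94 in LM and from -2.18 to 2.19 in SM. SPI1 and CD14 of macrophages and MYOD1 of satellite cells were also higher in SM, but the macrophage marker CD68 was higher in LM (0.40). The lists name only genes that differ, and the part of these markers in the results below was not tested.

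The identity of the pigs across the muscles needs a caution before the results. On 6 probes of the array the values of each muscle fall into separate high and low levels, and none of these probes belongs to the genes described here. For 3 of the 6, LM and SM arrays with the same pig number had the same level in 43 of 90 pigs, where 45.8 would if the arrays were unrelated. These 3 were high on 49, 49 and 41 LM arrays and on 54, 54 and 36 SM arrays. They may therefore repeat 1 split, with the last reversed, and not be 3 separate observations. The other probes matched in 67, 74 and 83 pigs, where 56.2, 48.6 and 45.4 would if unrelated. In LM these probes also differed between slides. They were high on 21, 48 and 48 of 49 LM arrays of slides numbered up to 32 and on 0, 7 and 1 of 41 LM arrays of later slides. The half-sib families of the study also held 49 and 41 pigs, so slide and family may go together in LM. Which of them these levels follow was not tested. No sample was reassigned, and results that rest on the pairing of the muscles are given with that limit.

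Splicing removes introns from precursor mRNA in the spliceosome, which is built from small nuclear ribonucleoprotein particles (snRNPs). Each particle holds a small RNA, a ring of Sm or LSm proteins, and proteins of its own. SR proteins, rich in serine and arginine, mostly promote the use of exons, and heterogeneous nuclear ribonucleoproteins (hnRNPs) bind the same transcripts and often oppose them. RNA helicases of the DEAD-box (DDX) and DEAH-box (DHX) families unwind RNA or strip proteins from it, in the spliceosome and also in ribosome assembly, translation, mRNA decay and the sensing of viral RNA. RNA binding motif (RBM) proteins share a domain rather than a task. Skeletal muscle is known for its many muscle-specific splice forms, among them those of titin.

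Sequences of 60 bases were read for the probes on which results turn. The 3 probes that the lists assign to SNRPG, the small Sm ring protein G, are shown because their signals prove to be shared with many other probes. They are given 5′ to 3′, with the 26 bases that all 3 hold in capitals.
SNRPG scbe0002.k_173: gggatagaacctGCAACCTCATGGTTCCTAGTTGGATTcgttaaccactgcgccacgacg
SNRPG scaw0002.j_189: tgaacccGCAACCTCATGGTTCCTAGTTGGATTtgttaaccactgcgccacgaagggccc
SNRPG CO939211.1_181: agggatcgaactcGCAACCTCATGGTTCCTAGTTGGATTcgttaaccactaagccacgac
The stretch is of the kind found in PRE-1, a family of short interspersed repeats derived from a transfer RNA and present in very many copies in the pig genome. A piece of it, TTAACCACT, was searched in all 15198 probes on both strands. It occurs in 50 probes on the strand of the SNRPG probes (0.329%) and in 26 on the opposite strand (0.171%). The first 30 bases of the probe for BCL2L13, a mitochondrial protein of the BCL2 family, are shown because its signal is the nearest to that of SNRPG among named genes, with the searched piece in capitals.
BCL2L13 CK464907.1_592: TTAACCACTgcgccacgacgggaactccta
The 2 probes for HNRNPR, an hnRNP that binds mRNA in nucleus and cytoplasm, are shown because they start 60 bases apart in the same cDNA and yet disagree. They carry no marked bases.
HNRNPR AJ662094.1_211: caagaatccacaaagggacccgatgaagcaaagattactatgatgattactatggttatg
HNRNPR AJ662094.1_271: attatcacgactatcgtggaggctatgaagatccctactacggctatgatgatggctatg

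Among the members found in the lists, splicing regulators and helicases were mostly on the LM side, while the core snRNP proteins were split between the muscles. In the SR class (SRSF and SFRS symbols, together with proteins named for binding an SR protein), 10 of 12 probes were higher in LM. The same held for 7 of 8 HNRNP probes, 3 of 3 PRPF probes, 13 of 17 RBM probes, 8 of 11 DDX probes and 6 of 8 DHX probes, the last being 4 of 8 under quantile normalization. Of 6 SNRP probes 4 were higher in SM, 3 of them of SNRPG, so that 2 SNRP genes lay on each side. The signal of the SNRPG probes is shared with many other probes, and SNRPD1 was the other SNRP gene on the SM side. Of 3 LSM probes 2 were higher in SM, and the SF3 class had 1 probe on each side. The median difference was 0.61 over the LM-higher members and -0.57 over the SM-higher members, against 0.41 and -0.36 over all probes called higher in LM and in SM. A call means an adjusted p of 0.05 or less, and 83.5% of all 10987 probes were called in this comparison (35.7% higher in LM and 47.7% higher in SM). The call holds for all 70 members, which their choice fixes. A log2 difference of at least 1 was reached by 14 members, 12 higher in LM and 2 higher in SM. That is 20.0% of them against 8.9% of all probes. The members come from lists of differing genes, so this share and the medians above are not independent of that choice. The member lists end at 0.14 for DHX15 on the LM side and at -0.26 for LSM5 on the SM side. The SM list used here lacks its weaker genes, so SM-higher members may be missing and the counts by class may lean to LM.

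**Figure D1:**
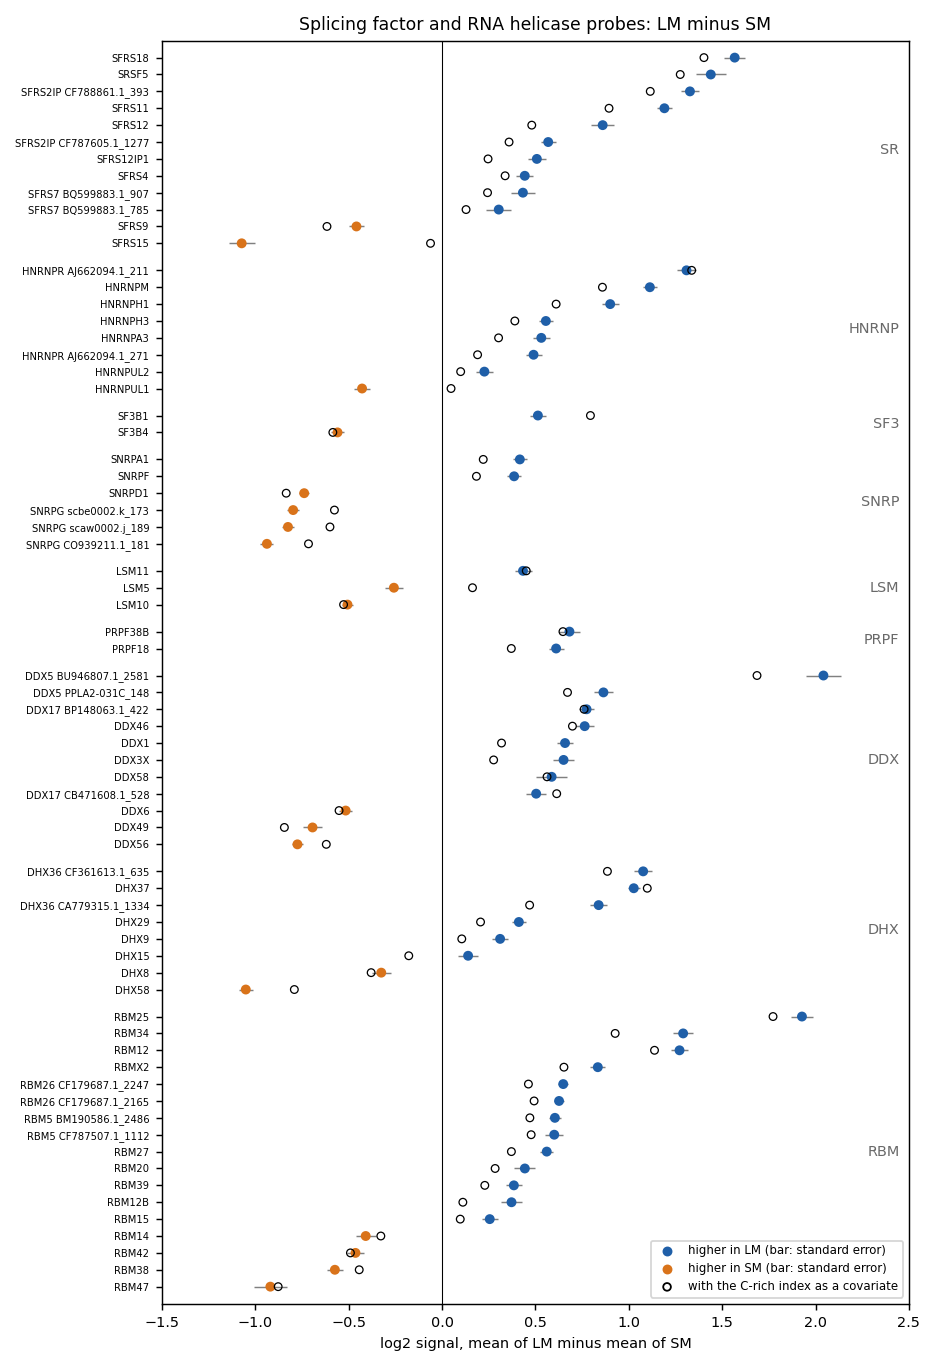
Difference between the muscles (log2 signal, mean of LM minus mean of SM) for 69 of the 70 probes, grouped by symbol class. Filled points are the fitted differences with bars of 1 standard error, blue for genes of the LM list and orange for those of the SM list, and open circles are the differences with the C-rich index of each array as a covariate. DDX5 (2.04) and RBM25 (1.93) lie farthest to the right, SFRS15 (-1.07) and DHX58 (-1.05) farthest to the left, and the open circle of SFRS15 lies near 0.

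Among SR proteins and their partners, the farthest probe was that of SFRS18 (now PNISR), a nuclear protein that binds the spliceosome component pinin. Its value ran from -1.92 over a median of -1.14 to -0.74 in LM and from -4.01 over -2.70 to -1.69 in SM. The difference was 1.57 (SE 0.05), a 2.96-fold higher signal in LM, and 89 of 90 LM arrays lay above the highest SM array. SRSF5, a classical SR protein, had a lowest value of -2.76, a median of -0.60 and a highest of 0.90 in LM, and -3.12, -2.16 and -0.85 in SM. It was 2.71-fold higher in LM with wide overlap at the low end, since its lowest LM array lay near the bottom of the SM arrays. SFRS11 (SRSF11) was 2.28-fold higher in LM, with 84 of 90 LM arrays above every SM array. SFRS2IP (SCAF11) is named for its binding to SRSF2. Its probe CF788861.1_393 ran from -0.98 over -0.23 to 0.29 in LM and from -2.47 over -1.53 to -0.79 in SM, a difference of 1.33. Its probe CF787605.1_1277 ran from 0.24 over 0.72 to 1.15 in LM and from -0.75 over 0.16 to 0.99 in SM, a difference of 0.57. On the former 86 of 90 LM arrays lay above every SM array, on the latter 4.

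SFRS12 (SREK1), a splicing regulator of the SR family, ran from -2.67 over -1.47 to -0.84 in LM and from -3.50 over -2.35 to -1.07 in SM. The muscles overlapped in this gene, with 5 LM arrays above all SM arrays. Its interacting protein SFRS12IP1 (SREK1IP1) ran from -2.20 over -1.39 to -0.78 in LM and from -2.83 over -1.91 to -0.87 in SM, a difference of 0.51. SFRS4 (SRSF4) differed by 0.44. SFRS7 (SRSF7), an SR protein that also helps to export mRNA, overlapped at the low end of both muscles. Its probe BQ599883.1_907 ran from 1.40 over 2.64 to 3.52 in LM and from 1.38 over 2.17 to 2.89 in SM, a difference of 0.43 with 27 LM arrays above every SM array. The other probe differed by 0.30, with 18 such arrays.

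SFRS9 and SFRS15 were the SR-class genes higher in SM. SFRS9 (SRSF9) ran from -0.76 over -0.02 to 0.67 in LM and from -0.04 over 0.44 to 0.92 in SM. The ranges overlapped in part, with 42 of 90 LM arrays below every SM array and 11 of 90 SM arrays above every LM array. SFRS15 (SCAF4), which binds the tail of RNA polymerase II, ran from -1.60 over -0.75 to 0.41 in LM (79 arrays) and from -0.57 over 0.32 to 2.00 in SM (88 arrays). Its difference of -1.07 was -0.062 when an index of C-rich probes was a covariate. For each array, this index takes the mean value of C-rich probes (at least 8 C among the first 15 bases) and subtracts the mean value of C-poor probes (at most 2 C). Its median was -0.36 over LM arrays and 0.35 over SM arrays, so it moves with the muscle itself.

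Among hnRNPs, HNRNPM, a splicing regulator with GU-rich targets, separated the muscles without overlap. Its values lay between -0.22 and 0.98 in LM (median 0.15) and between -1.75 and -0.29 in SM (median -0.94), a 2.16-fold difference. Ranges that do not overlap occurred in 2 of the 70 members (2.86%), this one and RBM25, against 2.08% of all probes. HNRNPR gave the largest difference of the class on one probe, from -2.07 over -1.54 to -0.63 in LM and from -3.49 over -2.88 to -1.22 in SM, or 1.31. On its neighbouring probe the values were -1.71, -0.77 and 0.02 in LM and -1.93, -1.25 and -0.63 in SM, or 0.49. HNRNPH1 and HNRNPH3, which bind runs of G, differed by 0.90 and 0.56, HNRNPA3 by 0.53 and HNRNPUL2 by 0.23. HNRNPUL1, a relative of HNRNPUL2 and of the nuclear matrix protein HNRNPU, was on the SM side, from -2.09 over -1.67 to -0.81 in LM and from -1.74 over -1.25 to -0.39 in SM. Its difference of -0.43 turned to 0.048 with the C-rich index as a covariate.

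**Figure D2:**
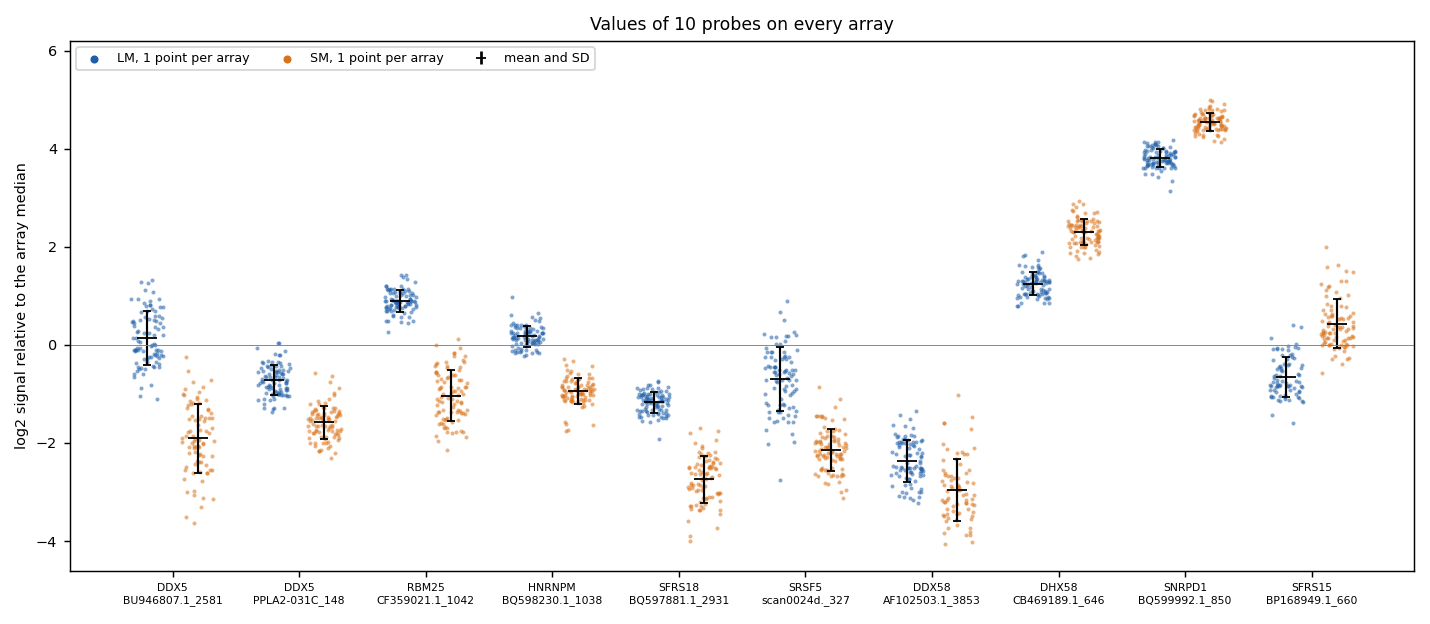
Values of 10 probes (9 genes) on every array, as log2 signal relative to the median of that array, with 1 point for each LM array (blue) and SM array (orange) and black bars for the mean and 1 SD. The clouds of RBM25 and HNRNPM do not overlap, those of DDX58 overlap over most of their range, and the 2 DDX5 probes differ in how far apart the muscles lie (2.04 and 0.86).

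Core proteins of the same particle lay on opposite sides. SF3B1 and SF3B4 sit together in the SF3b complex of the U2 snRNP, which holds the branch point. SF3B1 ran from -3.85 over -2.78 to -2.05 in LM (88 arrays) and from -3.81 over -3.30 to -2.75 in SM (71 arrays), a difference of 0.51. Its low SM values leave out 19 failing spots. SF3B4 ran from -0.02 over 0.39 to 0.94 in LM and from 0.47 over 0.96 to 1.48 in SM, a difference of -0.56. SNRPA1, the U2 protein A′, ran from -0.87 over -0.27 to 0.08 in LM and from -1.38 over -0.69 to -0.08 in SM, a difference of 0.42. In the Sm ring, SNRPF differed by 0.39 and SNRPD1 by -0.74, and 88 of 90 SM arrays of SNRPD1 lay above every LM array. The SNRPG probes differed by -0.80, -0.83 and -0.94. The farthest of them ran from 3.01 over 3.50 to 3.97 in LM and from 3.59 over 4.45 to 4.95 in SM, and 84 of 90 SM arrays lay above every LM array.

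In the U7 particle, which cuts the end of histone mRNA and has LSM10 and LSM11 in its ring, the ring proteins lay on opposite sides. LSM11 ran from -2.29 over -1.46 to -0.83 in LM and from -2.60 over -1.86 to -1.02 in SM, a difference of 0.43. LSM10 ran from 2.58 over 3.03 to 3.44 in LM and from 3.03 over 3.54 to 3.99 in SM, a difference of -0.51. LSM5, part of the rings that bind U6 RNA and decaying mRNA, differed by -0.26, which turned to 0.16 with the C-rich index. The PRPF genes, named after yeast pre-mRNA processing mutants, were all on the LM side. PRPF38B ran from -1.92 over -0.51 to 0.29 in LM and from -2.17 over -1.14 to -0.45 in SM, a difference of 0.68. PRPF18, a factor of the second step of splicing, differed by 0.61.

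DDX5 had the largest difference of all members. This helicase, also called p68, acts in splicing and as a partner of transcription factors, including MyoD in muscle. Its first probe ran from -1.10 over 0.03 to 1.33 in LM and from -3.62 over -1.93 to -0.24 in SM (83 arrays). The difference was 2.04 (SE 0.09), or 4.12-fold, and 66 of 90 LM arrays lay above every SM array. The second DDX5 probe ran from -1.36 over -0.73 to 0.05 in LM and from -2.31 over -1.56 to -0.58 in SM, a difference of 0.86 (SE 0.05). DDX17 is the close paralog of DDX5. Its probe BP148063.1_422 ran from -0.39 over 0.02 to 0.34 in LM and from -1.34 over -0.81 to 0.28 in SM, a difference of 0.77. Its probe CB471608.1_528 ran from 1.40 over 2.00 to 2.51 in LM and from 0.69 over 1.41 to 3.02 in SM, a difference of 0.50. On the latter the 3 highest arrays of all were SM arrays. DDX46, a helicase of U2 recruitment, differed by 0.76. DDX1, which takes part in tRNA ligation, differed by 0.66. DDX3X, a helicase of translation initiation, ran from -0.54 over 0.09 to 1.02 in LM and from -1.72 over -0.51 to 0.25 in SM, a difference of 0.65.

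The DDX genes on the SM side are known for roles outside splicing, as are DDX1, DDX3X and DDX58 on the LM side. DDX56, a nucleolar helicase of ribosome assembly, ran from 1.12 over 1.51 to 2.16 in LM and from 1.91 over 2.28 to 2.84 in SM, with 64 of 90 SM arrays above every LM array. DDX49, another nucleolar helicase, differed by -0.69. DDX6, which represses and decays mRNA in P-bodies, differed by -0.52, and 50 of 90 SM arrays lay above every LM array.

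Among DEAH-box helicases, DHX36, which unwinds G-quadruplexes, differed most on the LM side. Its probes differed by 1.08 and 0.84. The first ran from -1.86 over -1.33 to -0.49 in LM and from -3.23 over -2.39 to -1.38 in SM, with 55 of 90 LM arrays above every SM array. The second ran from -1.32 over -0.86 to -0.22 in LM and from -2.82 over -1.63 to -1.02 in SM, with 69 of 90 above every SM array. DHX37, a helicase of ribosome assembly, differed by 1.03, and DHX29, a helicase of translation initiation, by 0.41. DHX9, also called RNA helicase A, differed by 0.31 and DHX15, which takes the spent spliceosome apart, by 0.14. Both moved to the other side of 0 under quantile normalization, to -0.038 and -0.0072. DHX8, which releases the spliced mRNA, was on the SM side at -0.33.

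The probes assigned to the cytosolic sensors of viral RNA lay on opposite sides. DDX58 (RIG-I) ran from -3.23 over -2.47 to -1.35 in LM (88 arrays) and from -4.06 over -3.04 to -1.02 in SM (76 arrays), a difference of 0.59 in which the SM range covers that of LM. DHX58 (LGP2), a relative of RIG-I without its signalling domains, ran from 0.79 over 1.26 to 1.90 in LM and from 1.74 over 2.31 to 2.94 in SM. It was 2.07-fold higher in SM, and 84 of 90 SM arrays lay above every LM array. Of 10 interferon-induced genes named among 32 listed, 1 passed the test higher in LM (OAS1, 0.40) and 6 passed it higher in SM (MX1, TAP1, PSMB9, ISG15, STAT2 and IFIT1, between -0.64 and -0.34). These genes are named by lists of genes that differ, and 83.5% of all probes passed the test, so nothing is read from this count.

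RBM25, which binds the U1 particle and acts on the splicing of an apoptosis regulator, had the widest gap of the RBM class. Its values lay between 0.27 and 1.43 in LM (median 0.89) and between -2.15 and 0.12 in SM (median -1.04). The difference was 1.93 (SE 0.06), or 3.80-fold, and no SM array reached the lowest LM array. RBM34 and RBM12 followed with differences of 1.29 and 1.27, and 89 of 90 LM arrays of RBM12 lay above every SM array. RBMX2, a spliceosome protein, differed by 0.83. RBM26, an adaptor in the nuclear decay of polyadenylated RNA, ran on its probe CF179687.1_2247 from 2.33 over 2.77 to 3.11 in LM and from 1.52 over 2.11 to 2.49 in SM. The difference was 0.65, the other RBM26 probe differed by 0.63, and the paralog RBM27 by 0.56. RBM5 is a splicing regulator of apoptosis genes. It differed by 0.60 on each of its probes, though the muscles lay apart to a different degree. On BM190586.1_2486 it ran from 4.40 over 4.82 to 5.25 in LM and from 3.63 over 4.22 to 4.62 in SM, and on CF787507.1_1112 the medians were -1.92 in LM and -2.54 in SM, with a highest SM array at -1.58. On the former 75 of 90 LM arrays lay above every SM array, on the latter 12. RBM39, a splicing factor related to U2AF, differed by 0.38, RBM12B by 0.37 and RBM15, of the m6A writer complex, by 0.26.

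RBM20, the regulator of titin splicing in striated muscle, ran from 2.80 over 3.74 to 4.77 in LM and from 2.40 over 3.34 to 4.54 in SM. The difference of 0.44 is 1.36-fold, and the muscles overlapped almost throughout, with 2 LM arrays above every SM array. On the SM side, RBM47, a cofactor of APOBEC1 in RNA editing, ran from -4.04 over -3.15 to -1.71 in LM (66 arrays) and from -3.64 over -2.16 to -0.42 in SM (85 arrays). Its difference was -0.92, and the LM values leave out 24 failing spots. RBM38, which binds and stabilizes the mRNA of a cell cycle inhibitor, ran from 3.38 over 4.01 to 4.55 in LM and from 3.90 over 4.58 to 5.32 in SM. RBM42 and RBM14 differed by -0.46 and -0.41.

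Splicing genes outside the symbol rule that the lists name were also mostly on the LM side. Of 88 further splicing and RNA processing genes, the lists name 40, with 49 probes. The test was passed by 42 of these probes higher in LM and by 6 higher in SM, with a median difference of 0.59 over the 49. Of all probes, 35.7% passed it higher in LM and 47.7% higher in SM. The lists name only genes that differ, and the SM list used here lacks its weaker genes. These counts are therefore not independent evidence of the direction. CLK1, a kinase of SR proteins, differed by 2.04 and CRNKL1, a scaffold of the active spliceosome, by 1.66. ZCRB1, of the minor spliceosome, differed by 1.69 and 0.77, and NUDT21, a factor of mRNA 3′ end cleavage, by 1.55 and 0.51. MBNL1, a splicing regulator of muscle maturation, differed by 0.89 and 0.74, and RBFOX1, another, by 0.40. Higher in SM were CASC3 (-1.31) of the exon junction complex, the RNA-binding proteins KHDRBS3 (-0.94) and ELAVL1 (-0.56), the U5 protein SNRNP40 (-0.52), the SR protein kinase SRPK2 (-0.33) and the U5 GTPase EFTUD2 (-0.33).

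The base composition of the probes went with the side. The probes of LM-higher members had a median GC content of 38.3% and those of SM-higher members of 45.0%, against 43.3% over all probes. None of 51 LM-higher members reached 50% GC, but 9 of 19 SM-higher members did, the SNRPG probes among them. The share of all probes reaching 50% GC is not given here. Over all probes the medians were 40.0% for those called higher in LM and 45.0% for those called higher in SM. With the C-rich index as a covariate, 63 of 70 members were called and their median difference was 0.31 in place of 0.51, while 74.2% of all probes were called. No longer called were DHX9, HNRNPUL1, HNRNPUL2, RBM12B, RBM15, SFRS15 and a probe of SFRS7. DHX15 (-0.18), HNRNPUL1 (0.048) and LSM5 (0.16) had the other sign. The part of base composition in the differences was not tested.

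Differences between animals within a muscle are not fixed by the choice of members, and they were larger in SM for many of these genes. The spread was measured as the mean distance of an array from the median of its muscle, and was compared by limma with Benjamini-Hochberg adjustment over all probes. It was wider in SM for 18 of 70 members (25.7%) and wider in LM for 2 (2.86%), where 8.91% and 5.62% of all probes were called. All 18 are LM-higher members, and they make up 35.3% of these, against 19.7% of all probes called higher in LM and 3.18% of those called higher in SM. The median signal in SM was 179 over the LM-higher members and 208 over the 18 and 420 over all probes, so the 18 were brighter than the LM-higher members as a whole and dimmer than the array as a whole. The part of signal strength was not tested.

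RBM25 had the largest excess of spread in SM. Its mean distance from the median was 0.17 in LM and 0.43 in SM (adjusted p = 6.85e-11), and its SD over arrays was 0.23 and 0.52. SFRS18 followed, with distances of 0.17 and 0.38 (adjusted p = 4.61e-08). The DDX17 probe CB471608.1_528, RBM34, the SFRS2IP probe CF787605.1_1277, DHX29 and SFRS11 had excesses between 0.12 and 0.17. The other SFRS2IP probe, with an excess of 0.075, was not called (adjusted p = 0.0642). The 2 DDX17 probes, the 2 DHX36 probes and DHX37 were also among the 18. The members wider in LM were SRSF5, with distances of 0.51 and 0.33 (adjusted p = 0.00662), and the helicase DDX49, with 0.33 and 0.21 (adjusted p = 0.000652). The widest SDs in LM were those of SRSF5 (0.65), the first DDX5 probe (0.55) and RBM47 (0.53), and in SM those of the first DDX5 probe (0.71), DDX58 (0.63) and RBM47 (0.56). The count wider in SM depended on the values used, with 9 members after normexp background correction and 31 when distances were taken from slide means.

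Part of the spread went with the slide, in a share of members close to that of all probes. Between slides of LM, 37 of 70 members differed (52.9%, against 53.6% of all probes tested). Between slides of SM, 10 of 70 differed (14.3%, against 15.0%). DDX49 (adjusted p = 2.88e-14) and LSM5 (adjusted p = 7.72e-09) differed most between LM slides and SFRS15 (adjusted p = 8.47e-05) between SM slides, all by the F test of limma. Slide means were therefore removed before arrays of a muscle were correlated. The study placed its hybridization batches within half-sib families of 41 and 49 pigs. LM arrays number 49 on slides up to 32 and 41 on later slides, so slide may carry family in LM. Removal of slide means may then also remove family differences, which was not tested.

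After removal of slide means, no correlation between a gene's level in LM and its level in SM of the same numbered pig was detected. The Pearson correlation between the muscles had a median of 0.01 over the members and of 0.02 over all 10875 probes tested, and 0 members and 0.0% of all probes were called after 100000 permutations of the pigs and Benjamini-Hochberg adjustment. An unadjusted p under 0.05 was reached by 2 members and by 609 of all probes (5.6%). With slide means kept, the median over the members was 0.08, 0 members and 0.978% of all probes were called, and an unadjusted p under 0.05 was reached by 4 members and 11.9% of all probes. The highest values were those of DHX29 (r = 0.23, rho = 0.21 over 82 pigs, permutation p = 0.038 and 0.0605, adjusted p = 0.875), SFRS12IP1 (r = 0.18), LSM11 (r = 0.18), a SFRS2IP probe (r = 0.15) and SFRS12 (r = 0.15). The lowest were RBM38 (r = -0.22, rho = -0.22, permutation p = 0.0421 and 0.0451, adjusted p = 0.881), SFRS9 (r = -0.19) and DDX3X (r = -0.18). Without its 2 most extreme pigs, DHX29 had an r of 0.19. The doubt on the pairing of the arrays given above applies to all of these values. Where slide means were removed, differences between the families may have been removed with them.

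Within each muscle, members of the LM side varied together over the arrays, with higher values of r in SM. Over the 1267 pairs of LM-higher probes of different genes, the median Pearson r was 0.12 in LM and 0.28 in SM, against 0.02 and 0.05 over pairs of all probes called higher in LM. Over the 168 pairs of SM-higher members it was 0.06 in LM and 0.15 in SM, against 0.01 and 0.07 over all probes called higher in SM. Over the 969 pairs that cross the sides it was 0.01 in LM and -0.12 in SM, against -0.01 and -0.05. These are descriptions, since pairs share arrays, each array contributes its base composition and signal strength to every probe, and the members were chosen. With the C-rich index of the arrays removed, the medians in SM were 0.20 for LM-higher pairs and -0.03 for pairs across the sides. The LM-higher members had a median r with that index of -0.22 in LM and -0.38 in SM, and the SM-higher members of 0.00 and 0.20.

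An r above 0.5 was found for 102 of 2404 pairs in LM, for 281 in SM and for 41 in both muscles. The share of all pairs of probes above 0.5 is not given here. The upper quartile of r was 0.24 in LM and 0.34 in SM over the member pairs, against 0.14 and 0.15 over all pairs. Of those 41, 40 were pairs of LM-higher members, which make up 1267 of the 2404 pairs. The remaining 1 was a pair of SM-higher members, HNRNPUL1 with SFRS15. Ranked by the lower of the r in LM and in SM, the highest pair was SFRS12 with its interacting protein SFRS12IP1, with an r of 0.73 in LM and 0.64 in SM. DDX46, which helps the U2 particle to bind, and PRPF38B had an r of 0.76 and 0.60. The first DDX5 probe and SFRS12 had an r of 0.63 and 0.74, and the helicases DDX3X and DHX15 of 0.65 and 0.63. DHX15 recurred in such pairs, with HNRNPH1 (0.60 and 0.74), HNRNPH3 (0.62 and 0.62) and PRPF18 (0.60 and 0.61).

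Some pairs were tight in SM and loose in LM. RBM34 and SFRS12IP1 had an r of 0.33 in LM and 0.80 in SM, the first DDX5 probe and SFRS11 of 0.30 and 0.78, and DHX29 and RBM34 of 0.24 and 0.75. These were picked for their height in SM and the gap was not tested. RBM34 had the highest median r with the LM-higher members in SM, 0.52, and 0.32 in LM. Ranked by the higher of the r in LM and in SM, the lowest pairs were those of SFRS15 with DHX15 (-0.48 in LM and -0.47 in SM), with the DHX36 probe CA779315.1_1334 (-0.45 and -0.51) and with HNRNPM (-0.45 and -0.44).

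**Figure D3:**
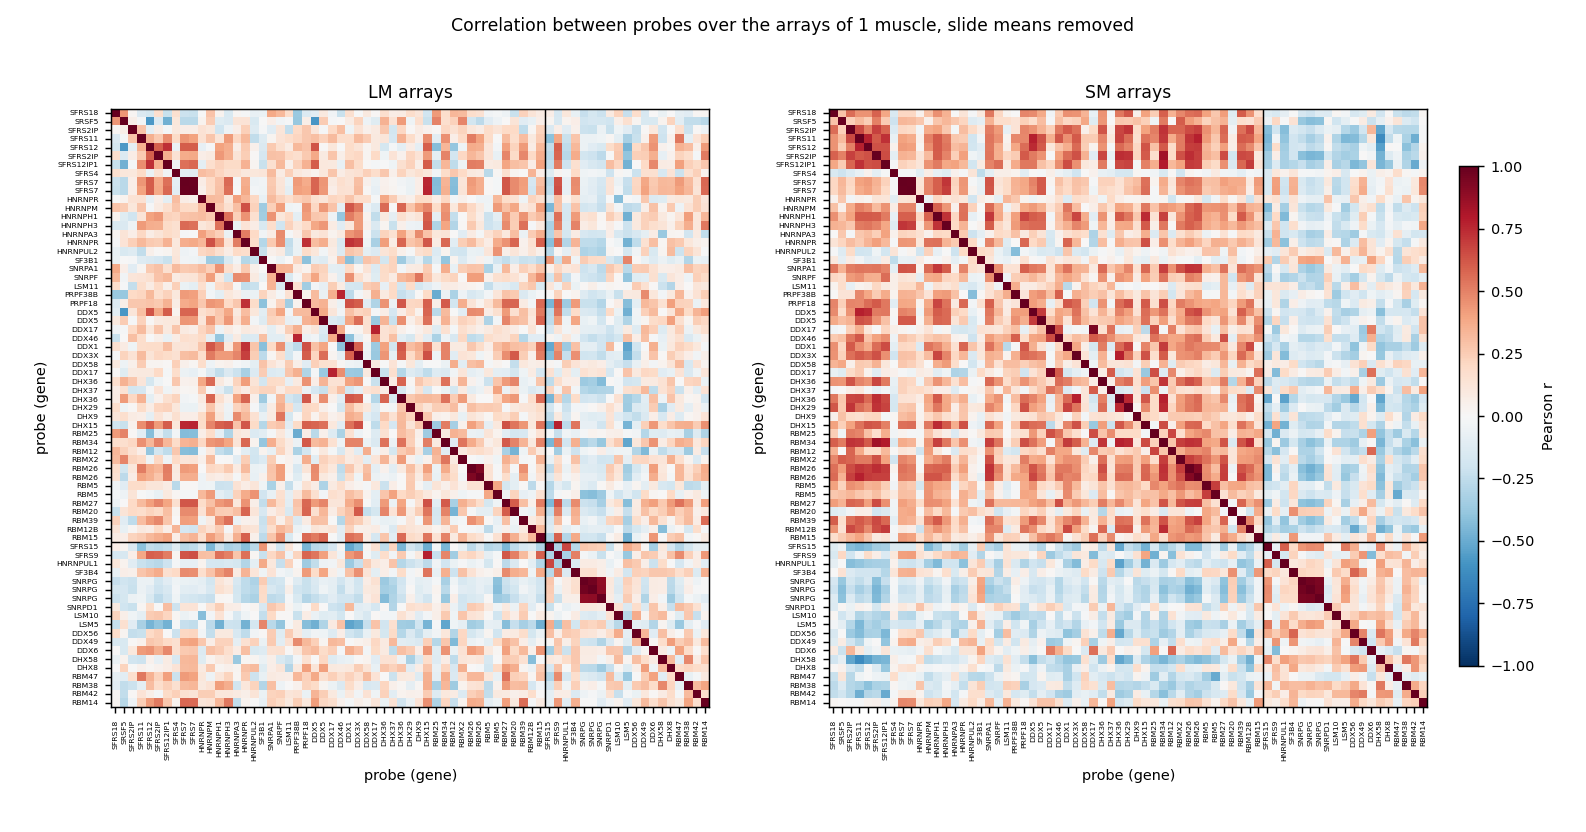
Pearson correlation between all pairs of 69 of the 70 probes over the LM arrays (left) and over the SM arrays (right), after removal of slide means, on a colour scale from -1 to 1. Black lines separate the 50 probes higher in LM from the 19 higher in SM, and the upper left block is redder in SM than in LM (median r 0.28 and 0.12 over all 51 probes higher in LM).

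Proteins that work in the same particle had low r with each other, paralogs a mixed one. The U7 ring proteins LSM10 and LSM11 had an r of 0.01 in LM and -0.27 in SM. SF3B1 and SF3B4 had an r of -0.04 and 0.12, and SNRPD1 and SNRPF of 0.21 and 0.24. Among paralogs, HNRNPH1 and HNRNPH3 had an r of 0.54 and 0.73, and the RBM26 probe CF179687.1_2247 and RBM27 of 0.27 and 0.68. HNRNPUL1 and HNRNPUL2 had an r of -0.10 and 0.12. DDX5 and DDX17, which are known to act together, ranged over their 4 probe pairs from -0.37 to 0.12 in LM and from 0.14 to 0.29 in SM.

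Probes of the same gene were compared with each other as a check of what each signal measures. Of 559 pairs of probes that the lists assign to the same gene, 85.3% were called in LM and 88.7% in SM (permutation test, Benjamini-Hochberg over the 559 pairs), with a median r of 0.79 and 0.82. The members hold 11 such pairs, of 9 genes, and 10 were called in each muscle. The SFRS7 probes had an r of 0.99 in both muscles, those of RBM26 of 0.93 and 0.92, and those of DDX17 of 0.77 and 0.94. The DHX36 probes had an r of 0.58 and 0.50, those of RBM5 of 0.39 and 0.69, and those of DDX5 of 0.38 and 0.70. For DDX5 in LM, rho was 0.41, r was 0.36 without the 2 most extreme arrays, and the adjusted permutation p was 0.000486.

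The remaining pair was a different one in each muscle. The HNRNPR probes printed above had an r of 0.33 in LM (rho = 0.37, adjusted permutation p = 0.00228 over 84 arrays) and of 0.11 in SM (rho = 0.12, adjusted permutation p = 0.337 over 79 arrays). The longest run of bases they share is 10. The SFRS2IP probes had an r of 0.08 in LM (rho = 0.05, adjusted permutation p = 0.515 over 85 arrays) and of 0.69 in SM (rho = 0.66, adjusted permutation p = 1.29e-05, the smallest that 100000 permutations give after adjustment). For both genes the probes also differ in the size of the muscle difference, by 0.82 for HNRNPR and by 0.76 for SFRS2IP. The largest such gap was that of DDX5, 1.18, and the RBM5 probes differed by 0.0035. Which transcripts each probe reads is not analysed here.

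**Figure D4:**
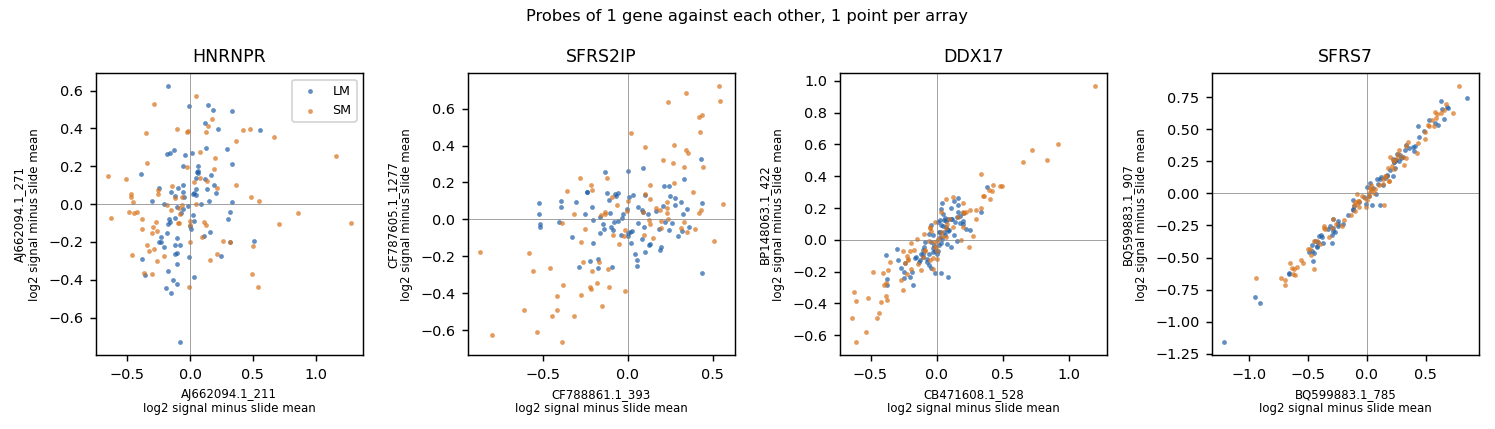
Values of a pair of probes of the same gene against each other, as log2 signal minus the slide mean, for HNRNPR, SFRS2IP, DDX17 and SFRS7, with 1 point for each LM array (blue) and SM array (orange). The points of SFRS7 lie on a line (r = 0.99 in both muscles), while those of HNRNPR form a cloud (r = 0.33 in LM and 0.11 in SM).

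The SNRPG probes had an r with each other between 0.89 and 0.97 in LM and between 0.94 and 0.96 in SM, and share runs of 26 to 37 bases. Their signal was shared far beyond SNRPG. Besides them, 47 probes kept hold TTAACCACT on the same strand, and their median r with the SNRPG probe CO939211.1_181 was 0.91 in LM and 0.88 in SM. An r above 0.5 in both muscles was found for 45 of the 47 and for 173 of all 10984 probes kept besides those of SNRPG, the 45 included. Of the 47, 41 were called on the SM side and 3 on the LM side, and their median difference was -0.45. The 23 probes with the piece on the opposite strand had a median r of 0.10 in LM and -0.25 in SM, and 22 of them were called higher in LM, with a median difference of 1.34. The piece was chosen after these values had been seen, so the counts are descriptions. The share of SNRPG mRNA in the signal of its probes was not tested, and the place of the probes in the transcript is not analysed here.

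**Figure D5:**
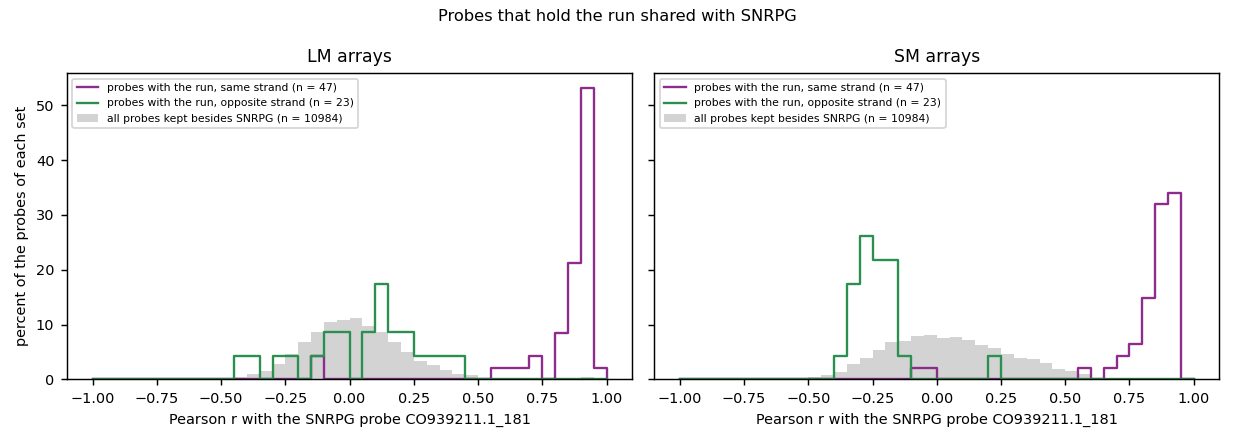
Distribution of the Pearson r with the SNRPG probe CO939211.1_181 over LM arrays (left) and SM arrays (right), as percent of the probes of each set, for 47 probes with the searched piece on the same strand (purple), 23 with it on the opposite strand (green) and all 10984 probes kept besides those of SNRPG, these sets included (grey). Most of the purple set lies near 0.9 in both muscles, and most of the grey set lies around 0.

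The probes most like a member were sought among all named probes of other genes, by the mean of the Pearson r in LM and in SM. For SNRPG the nearest was the BCL2L13 probe printed above (0.95 in LM and 0.91 in SM), followed by 2 probes of ACTA1, skeletal muscle actin (0.69 and 0.68 for the nearer). For DDX5 it was HNRPDL, an hnRNP-like protein outside the symbol rule (0.70 and 0.82), followed by BTAF1, SFRS12, RIOK2 and C12ORF41. For SRSF5 it was VPS4B (0.75 and 0.45), then RCHY1, the member RBMX2 and the spliceosome gene SYF2. For RBM20 it was RANBP10 (0.69 and 0.55), then MED15 and PPARA, a regulator of fatty acid oxidation.

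The probes assigned to the viral RNA sensors had different neighbours. DDX58 was nearest to USP18, MX1, PLAC8, IFIT1 and ISG15, with a mean r from 0.67 to 0.71, and of these USP18, MX1, IFIT1 and ISG15 are known to be induced by interferon. Over the 10 interferon-induced genes listed, the median r of DDX58 was 0.56 in LM and 0.54 in SM. IRF7 was the exception, with -0.01 and -0.22. DHX58, itself known as an interferon-induced gene, had a median r with the same genes of 0.16 in LM and 0.27 in SM. Its nearest probes were those of the tubulin genes TUBB1 (0.86 and 0.91), TUBB4 and TUBB2C and of FAM166A. DDX58 and DHX58 had an r of 0.04 over 79 LM arrays and of 0.16 over 75 SM arrays, given with no test. Whether the DHX58 probe reads only DHX58 mRNA was not tested.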

How the data were processed

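Per the file headers, Agilent Feature Extraction 9.5.1.1 (44 LM arrays) or 9.5.3.1 (46 LM and all 90 SM arrays) gave the authors an intensity for each spot of a 1-colour (Cy3) array, with background subtracted and no normalization between arrays. A second table deposited by the authors holds 6903 probes on the natural log scale. It equals the natural log of the processed signal minus 1 constant per array (array medians from -0.61 to -0.31), and how the constant was set is not given in the sources used here. The study's lists of genes served only to pair probes with genes, and their fold changes and p values were not used. Of the 60 symbols, 51 are current in the RefSeq (Sscrofa11.1) and Ensembl gene tables, 1 is an older symbol there and 8 were kept as listed.

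Control spots were left out. Spots flagged for intensity, uniformity or saturation counted as missing, probes failing on more than 50% of the arrays of a muscle were removed, log2 values were centred on the array median, and outlying values of a probe (more than 3 SD away) were dropped, which left 3.07% missing. Muscles, spread and slides (of 3 or more arrays) were compared by the moderated linear model of limma 3.58.1 (R 4.3.3; statmod 1.5.0 for the random slide block), with Benjamini-Hochberg adjustment over all probes. Correlations used values minus slide means and 100000 two-sided permutations (Python 3.11.15, NumPy 2.4.6, SciPy 1.17.1, pandas 2.3.3, numba 0.67.0, matplotlib 3.10.9). The steps were tested on simulated data.

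Full values are given for the farthest probes of each class in each direction, genes with several probes, DDX58, DHX58, RBM20, the 5 highest and 3 lowest correlations between muscles and the 3 widest spreads of each muscle. The members, lists and rules were chosen with earlier results of these data known, and the alternative with 1 software version was added after the values were seen. The other alternatives changed the centring, normalization, background correction, file, base composition, spot filters, blocks, slide centring and coefficient. The study's terms for sex, slaughter batch and carcass weight could not be fitted, since the labels do not give them. One member enters the counts but is not reported here by name or drawn. Precision is limited by the number of arrays. Labels and methods differ in the amount of RNA labelled.

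The labels give both muscles of an animal the same pig number, which pairs them. Across probes, deviations from the muscle means had a median r of 0.08 between the muscles of a pig, against -0.01 between different pigs. After removal of slide means the medians were -0.01 and -0.00 (83 pigs).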

Additional observations from a re-analysis of the deposited data

How the results depend on the processing

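With the pig as a replicate block, 70 members were called between the muscles (51 higher in LM and 19 higher in SM), 18 had a wider spread in SM and 2 in LM, so the pairing changed no call of these counts. Of the counts and medians under the alternatives, 138 kept their direction and side of the threshold or stayed within 1.5 times. The exceptions among these were the number of members differing between SM slides, which was 17 with the C-rich index in place of 10, and the numbers for spread. Some medians also moved in size. The median difference of the members was 0.31 with normexp and with the C-rich index, in place of 0.51. The median r across the sides in SM was -0.03 with the C-rich index in place of -0.12. In LM it was -0.01 with slide means kept in place of 0.01. Over SM-higher pairs in SM it was 0.08 with quantile normalization in place of 0.15. The count wider in SM was 9 with normexp background correction and 31 with distances from slide means. The count wider in LM was 5 with quantile normalization, 4 with the deposited table, and 1 each with normexp, with slide means and with the arrays of 1 software version. Of the values of single probes, 755 kept direction and call, 10 were no longer called and 5 changed sign. The sign turned under quantile normalization for DHX9 (-0.038) and DHX15 (-0.0072) and with the C-rich index for DHX15 (-0.18), HNRNPUL1 (0.048) and LSM5 (0.16). The cause was not tested. The number of members called between the muscles lay between 63 (C-rich index) and 70. Failing spots, which are missing, limit SF3B1 and DDX58 in SM and RBM47 and SFRS15 in LM. Which flag these spots failed is not given here.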
